A study of Homo sapiens with 12 samples.

Results

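The contractile actin cytoskeleton genes comprised 10 genes chosen by name, ACTA2, TAGLN, CNN1, CNN2, TPM1, TPM2, TPM4, MYL9, CALD1 and FLNA, out of 60715 genes in the deposited table. Each name matched 1 entry of the table. Their transcripts were measured by RNA sequencing in 4 established human lung adenocarcinoma lines. They were NCI-H2009 and LC-2/ad, as well as NCI-H2228 and HCC4006. Each line was measured in 3 states. The attached controls are labelled as untreated, and the detached cells were lifted with trypsin and kept for 1 day or 7 days on plates whose surface does not let cells attach. All cells were kept in RPMI-1640 with fetal bovine serum, penicillin and streptomycin. Each state therefore held 4 libraries, 1 per line, and the 4 lines served as replicates. The fit allowed each line its own level, so a p-value sets the mean change between states against the spread that remains between libraries. That spread is pooled over the 3 states and moderated across genes. With 1 library per line and state, it cannot separate differences between lines in their change from noise of single libraries. The control libraries carry no culture time, so loss of attachment, trypsin, replating and time cannot be told apart. Fewer cells that express a gene and less RNA per cell cannot be told apart in such bulk samples.

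These genes code for the actin filament and for the proteins that stiffen it and pull on it. Attached cells anchor bundles of actin, nonmuscle myosin II, tropomyosin and filamin to focal adhesions, and contraction of these stress fibres puts the cell under tension. Many of the genes are known targets of serum response factor (SRF), which binds a motif called the CArG box. Its coactivators MRTFA and MRTFB are held back by free actin monomers and are released when actin polymerises. ACTA2, TAGLN and CNN1 are best known from smooth muscle, whereas the cytoplasmic forms of actin, transgelin, calponin and myosin light chain serve most other cells.

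No member passed the test in either detached state, but most stood lower than in attached cells. Levels are given as TPM, the share of all transcripts in a library corrected for transcript length and scaled to 1000000, and changes as log2 fold changes with a standard error (SE). FLNA, which codes for the filament crosslinker filamin A, had log2 fold changes of -1.13 ± 0.39 (SE) at day 1 and -1.14 ± 0.39 at day 7. CALD1, which codes for caldesmon, stood at -0.88 ± 0.26 and -0.92 ± 0.26, and the smooth muscle gene TAGLN at -1.45 ± 0.53 and -1.73 ± 0.55 (n = 4 lines). CNN2, the calponin gene that was the most abundant member in LC-2/ad, stood at 0.00 ± 0.21 and -0.15 ± 0.21. The median over the 9 members with enough counts to be tested was -0.59 at day 1 and -0.92 at day 7, against 0.01 and 0.03 over all 17395 genes tested.

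The promoter windows of 3 members held an exact match to the motif by which SRF is known to bind. They are shown for that reason. RefSeq's table for GRCh38.p14 gave 15 transcript starts for 8 of the 10 genes, each with 250 bases before and 50 after the start. TAGLN and MYL9 are not in that table. The CArG box was searched as an exact pattern of 10 bases, with CC, then only A or T, then GG. It was found in the window of FLNA, CNN2 and the first of 3 starts of TPM4, and in 1.29% of 35116 promoters of that table. Looser forms of the box were not searched, so a window without a match may still hold an SRF site. The motif's pattern is its own reverse complement, and its bases are in capitals within 80 bases of upstream sequence, written from 5′ to 3′ along the gene.
FLNA: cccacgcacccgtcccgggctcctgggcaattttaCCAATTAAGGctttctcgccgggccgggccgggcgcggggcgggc
CNN2: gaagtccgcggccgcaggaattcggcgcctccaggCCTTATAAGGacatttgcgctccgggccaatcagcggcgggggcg
TPM4: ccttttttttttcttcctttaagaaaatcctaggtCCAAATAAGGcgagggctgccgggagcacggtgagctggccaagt
The FLNA stretch is chrX:154374684-154374763 on the minus strand, with the box from -94 to -85 relative to the start. The CNN2 stretch is chr19:1026484-1026563 on the plus strand, with the box from -89 to -80. The TPM4 stretch is chr19:16067330-16067409 on the plus strand, with the box from -173 to -164. Of these 3 genes, FLNA stood lower in each line in both detached states, TPM4 stood lower in each line at day 7, and CNN2 was split between higher and lower lines. A match is a description of these letters, and no binding was measured here. TATAAA, searched on both strands, occurred at 1 of the 15 starts, one of 4 starts of CALD1, and in 11.5% of all promoters. CATTCC, the core bound by TEAD factors, likewise searched on both strands, occurred at 2 starts of CALD1 and 1 of ACTA2, and in 14.0% of all promoters. These 2 motifs and the CArG box were searched independently and no overlap between them was looked at.

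**Figure D1:**
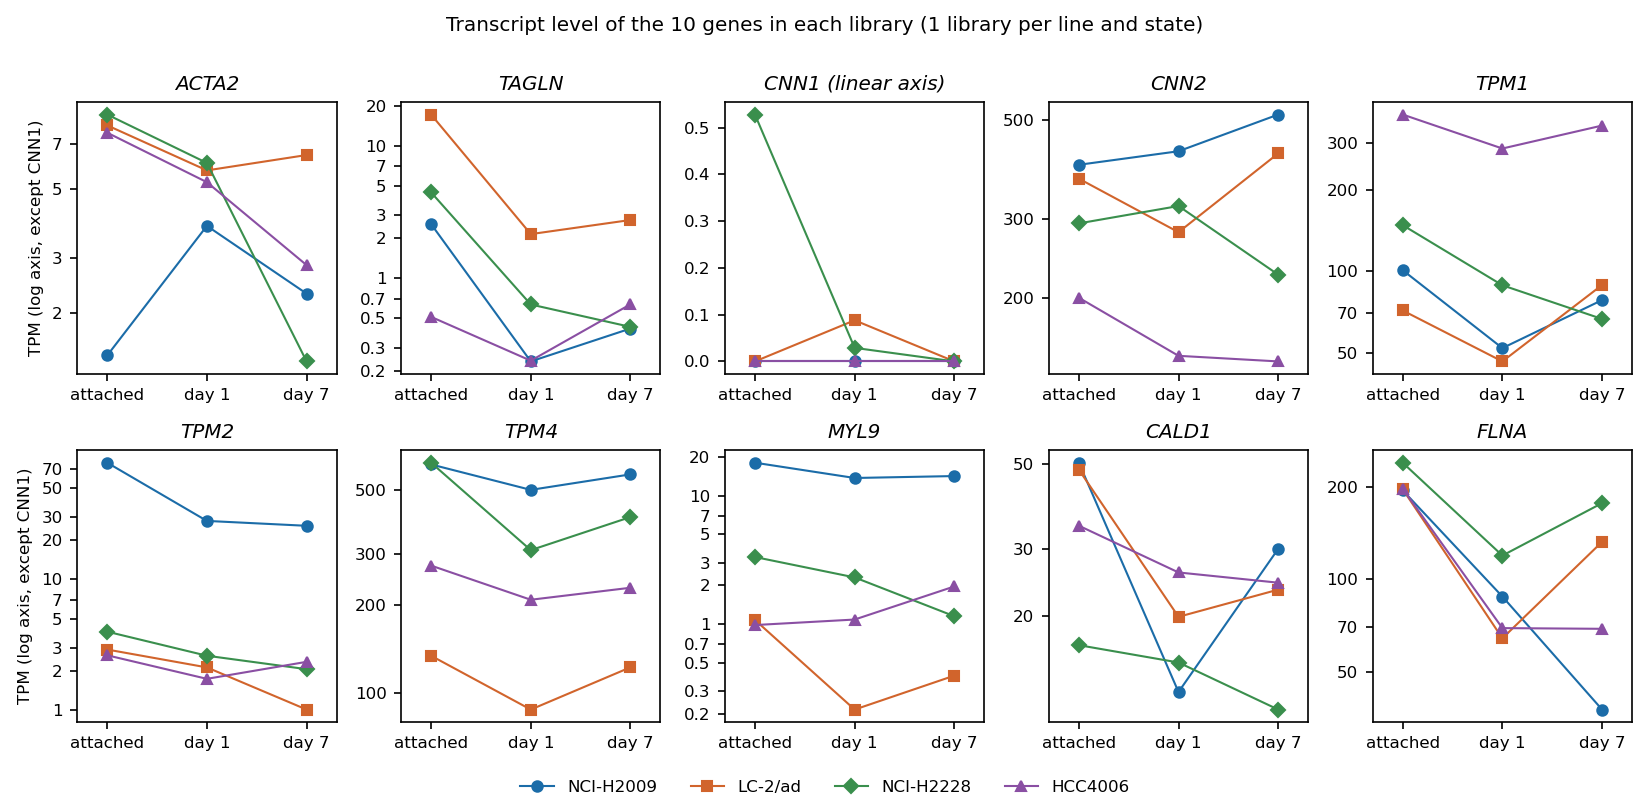
TPM of each of the 10 genes (vertical axis, log scale except for CNN1, which is linear) in attached cells and at day 1 and day 7 of detachment (horizontal axis). Each point is 1 library and each line of points is 1 cell line. FLNA in all detached libraries lies below the attached ones, and TPM2 and MYL9 lie highest in NCI-H2009 in every state.

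FLNA was the member whose libraries separated by state. In attached cells FLNA stood at 194 TPM in NCI-H2009 and 196 TPM in LC-2/ad, and 239 TPM in NCI-H2228 and 197 TPM in HCC4006. At day 1 the same lines, in that order, had 87.8, 64.2, 119 and 69.3 TPM, and at day 7 they had 37.7, 132, 177 and 68.9 TPM. Each detached library was below every attached one, which held for 2.9% of all tested genes at day 1 and 1.36% at day 7. The edgeR adjusted p was nonetheless 0.16 at day 1 and 0.218 at day 7, and the lines ran apart after day 1. The log2 difference of day 7 from day 1 was -1.91 in NCI-H2009 and 0.92 in LC-2/ad, and 0.48 in NCI-H2228 and 0.10 in HCC4006. Without NCI-H2009 the log2 fold change of day 7 from day 1 was 0.51, against -0.004 with it, with an edgeR adjusted p of 0.751. The gene lies at chrX:154348524-154374638 in the deposited table.

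CALD1 codes for caldesmon, which binds actin and tropomyosin and restrains myosin. In attached cells CALD1 stood at 50.3 TPM in NCI-H2009 and 48.3 TPM in LC-2/ad, and 16.8 TPM in NCI-H2228 and 34.4 TPM in HCC4006. The day 1 values were 12.6, 19.9, 15.1 and 26.0 TPM in the same order, and those of day 7 were 29.9, 23.4, 11.4 and 24.4 TPM. CALD1 was lower in each detached library than in the attached library of its line, although the groups overlapped because NCI-H2228 was low throughout. At day 1 the difference was larger in NCI-H2009 and LC-2/ad, at -1.75 and -1.24 on the log2 scale, than in NCI-H2228 and HCC4006, at -0.20 and -0.28. The edgeR adjusted p was 0.125 at day 1 and 0.162 at day 7, and DESeq2 called the gene in both, with an adjusted p of 0.029 each time. CALD1 lies at chr7:134744252-134970729, and its promoter windows held no exact match to the CArG box.

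**Figure D2:**
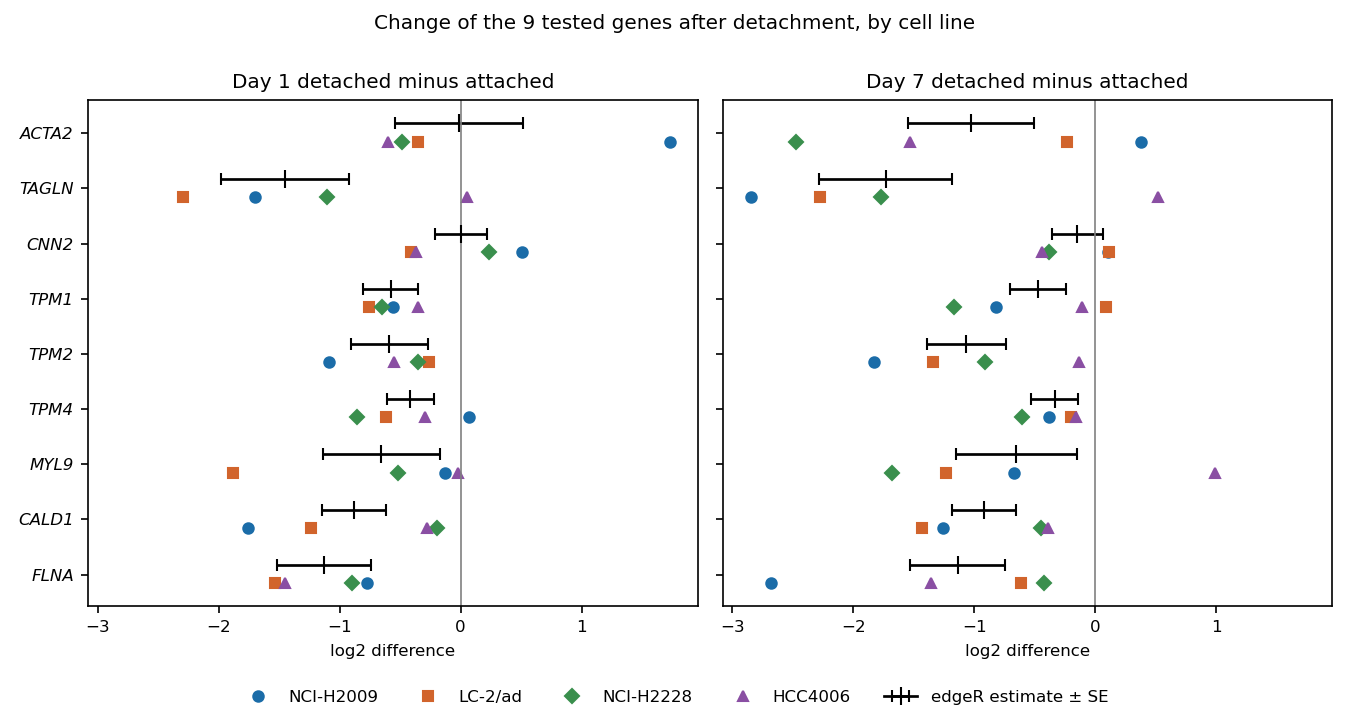
Log2 difference between detached and attached cells (horizontal axis) for the 9 tested genes, at day 1 (left panel) and day 7 (right panel). Coloured points are the 4 cell lines, and black bars are the edgeR estimate ± SE. The points of CALD1, FLNA and TPM2 lie left of 0 in both panels, whereas ACTA2, TAGLN and MYL9 have lines on both sides of 0 at day 7.

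Tropomyosins wind along actin filaments and set which myosins and other proteins can bind, and 3 of the 4 genes are members. TPM1 was lower in all 4 lines at day 1. In attached cells TPM1 stood at 101 TPM in NCI-H2009 and 71.6 TPM in LC-2/ad, and 148 TPM in NCI-H2228 and 382 TPM in HCC4006. At day 1 its values were 51.9, 46.4, 88.8 and 286 TPM in that order, and at day 7 they were 78.3, 89.1, 66.6 and 347 TPM. The log2 fold change was -0.58 ± 0.23 at day 1 (edgeR adjusted p = 0.203) and -0.47 ± 0.23 at day 7 (adjusted p = 0.355). At day 7 LC-2/ad stood above its attached level and NCI-H2228 below its day 1 level, so the lines differed in direction from day 1 to day 7.

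TPM4 was the most abundant tropomyosin among the members in every state of all lines but HCC4006, where TPM1 was. In attached cells TPM4 stood at 610 TPM in NCI-H2009 and 134 TPM in LC-2/ad, and 619 TPM in NCI-H2228 and 274 TPM in HCC4006. At day 1 it stood at 499, 87.7, 310 and 209 TPM in the same order, and at day 7 at 564, 123, 402 and 230 TPM. By TPM, TPM4 was thus lowest at day 1 in each line. The log2 fold change was -0.42 ± 0.19 at day 1 (edgeR adjusted p = 0.267) and -0.34 ± 0.19 at day 7 (adjusted p = 0.426). The pattern in NCI-H2009 depended on the scaling. On scaled counts its TPM4 difference from attached cells was 0.07 at day 1 and -0.38 at day 7. The gene lies at chr19:16067021-16103002.

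TPM2, which codes for beta-tropomyosin, was mainly a transcript of 1 line. In NCI-H2009 it stood at 78.3 TPM in attached cells, 28.0 at day 1 and 25.7 at day 7. In the other lines it was between 2.62 and 3.98 TPM in attached cells, between 1.73 and 2.60 at day 1 and between 1.01 and 2.34 at day 7. TPM2 stood lower in all 4 lines in both detached states. The log2 fold change was -0.59 ± 0.32 at day 1 (edgeR adjusted p = 0.333) and -1.06 ± 0.33 at day 7 (adjusted p = 0.178). DESeq2 called TPM2 at day 7 with an adjusted p of 0.0281. By line the day 7 difference was -1.83 in NCI-H2009 and -1.34 in LC-2/ad, and -0.91 in NCI-H2228 and -0.13 in HCC4006.

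The tropomyosin pool was dominated by TPM3 and TPM4. TPM3, which is not a member, made up between 44.9% and 73.2% of tropomyosin TPM over the 12 libraries, TPM4 between 17.2% and 47.5%, TPM1 between 4.95% and 31.8%, and TPM2 between 0.146% and 4.17%. HCC4006 had the largest TPM1 share in every state, with 27.5% in attached cells, 28.7% at day 1 and 31.8% at day 7. The summed tropomyosin TPM was lower in each detached library than in its attached control. In NCI-H2009 it was 1878, 1050 and 1400 TPM over attached, day 1 and day 7, and in HCC4006 1389, 995 and 1093 TPM. TPM3 itself stood at -0.73 ± 0.17 at day 1 (edgeR adjusted p = 0.0767) and -0.51 ± 0.17 at day 7 (adjusted p = 0.201).

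**Figure D3:**
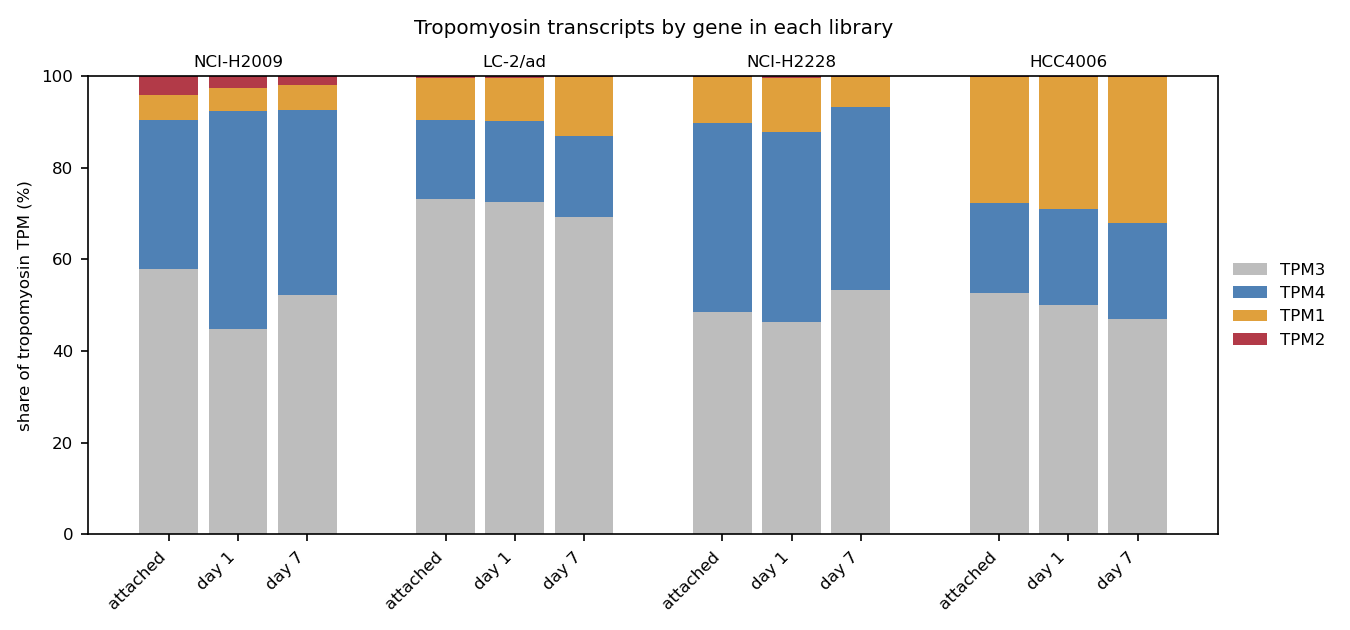
Share of summed tropomyosin TPM (vertical axis, percent) taken by TPM3, TPM4, TPM1 and TPM2 in each of the 12 libraries, grouped by cell line and ordered by state. TPM1 takes 27.5% to 31.8% in HCC4006, and the TPM2 share is visible mainly in NCI-H2009, with 4.17% in attached cells.

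CNN2 codes for calponin 2, an actin-binding protein of nonmuscle cells, and its estimates lay near 0 in both detached states. In attached cells CNN2 stood at 397 TPM in NCI-H2009 and 370 TPM in LC-2/ad, and 293 TPM in NCI-H2228 and 200 TPM in HCC4006. At day 1 it stood at 426, 280, 321 and 148 TPM in that order, and at day 7 at 515, 421, 225 and 144 TPM. At day 7 the count-based difference was 0.11 in both NCI-H2009 and LC-2/ad, but -0.38 in NCI-H2228 and -0.44 in HCC4006, with an edgeR adjusted p of 0.783. The gene lies at chr19:1026586-1039068. Among the deposited entries 11 are named as CNN2 pseudogenes, none above 1.90 TPM. AC011558.1 overlaps CNN2 over 338 bases on the other strand, with up to 30.0 TPM but at most 101 counts. CNN2 held at least 7365 counts in each library. The share of reads from these entries in the CNN2 values was not tested.

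The other calponin with abundant transcripts was CNN3, which codes for calponin 3. In 3 lines CNN2 made up a larger share of calponin TPM in each later state. The share was 54.5%, 62.4% and 70.4% over attached, day 1 and day 7 in NCI-H2009, 61.9%, 71.8% and 77.4% in LC-2/ad, and 59.7%, 68.0% and 73.1% in NCI-H2228. In HCC4006 it was 56.0%, 52.2% and 50.5%. CNN3 stood at -0.36 ± 0.24 at day 1 (edgeR adjusted p = 0.432) and -0.76 ± 0.24 at day 7 (adjusted p = 0.187), and was lower in all 4 lines in both. In LC-2/ad CNN3 had 227 TPM in attached cells, 110 at day 1 and 123 at day 7. The shares were set side by side with no test.

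**Figure D4:**
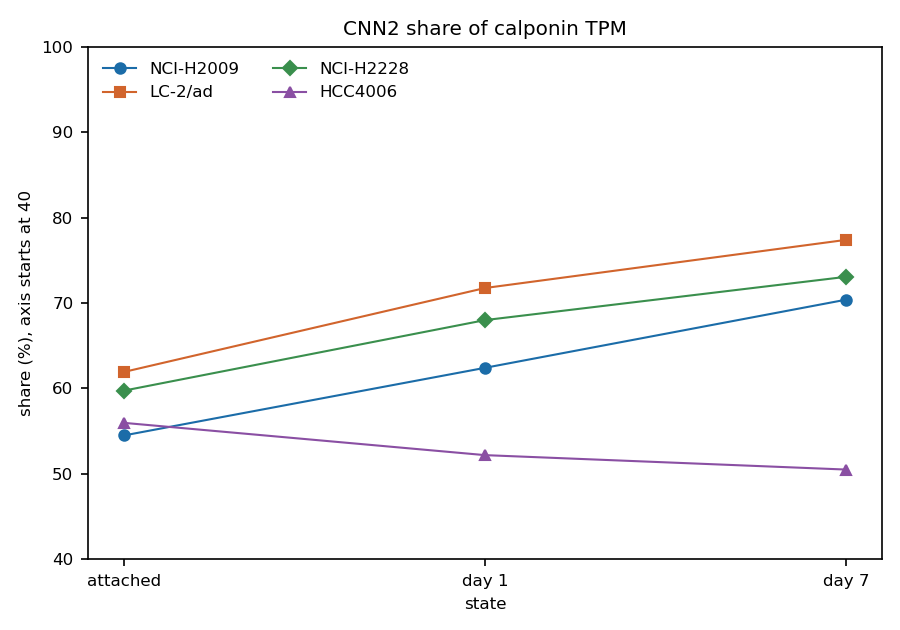
CNN2 share of calponin TPM (vertical axis, percent, starting at 40%) by state (horizontal axis), with 1 point per library and 1 colour per cell line. The share is higher in each later state in 3 lines, reaching 77.4% in LC-2/ad at day 7, and lower in each later state in HCC4006, where it is 50.5% at day 7.

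CNN1, the smooth muscle calponin gene, was near the detection limit. Its estimated count was 0 in 9 of 12 libraries. In NCI-H2228 it was 19 counts (0.528 TPM) in attached cells, 1 count at day 1 and 0 at day 7, and in LC-2/ad it was 1 count at day 1. Against a floor of 3 counts in the library, the NCI-H2228 library of day 7 was at least 6.16-fold lower than the attached one after scaling to the library totals. CNN1 did not pass the filter on low counts and was not tested.

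ACTA2 codes for the actin of smooth muscle and of contractile fibroblasts, and here it was a minor actin. It made up between 0.00646% and 0.0908% of actin TPM, nearly all of which came from ACTB and ACTG1. In attached cells ACTA2 stood at 1.47 TPM in NCI-H2009 and 8.01 TPM in LC-2/ad, and 8.68 TPM in NCI-H2228 and 7.59 TPM in HCC4006. At day 1 it stood at 3.82, 5.75, 6.07 and 5.27 TPM in that order, and at day 7 at 2.31, 6.44, 1.40 and 2.86 TPM. NCI-H2009 had a log2 difference of 1.73 at day 1 while the other lines lay between -0.60 and -0.35. The log2 fold change was -0.01 ± 0.53 at day 1 (edgeR adjusted p = 0.992) and -1.02 ± 0.52 at day 7 (adjusted p = 0.375). ACTA2 lies at chr10:88935074-88991339 and overlaps STAMBPL1 and, over 809 bases, FAS, both on the other strand. FAS reached 32.5 TPM, and no source used here says whether counting used the strand, which makes low ACTA2 values uncertain.

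TAGLN codes for transgelin, an actin-bundling protein of smooth muscle, and was likewise a minor form, with between 0.0136% and 1.16% of transgelin TPM beside TAGLN2. In attached cells TAGLN stood at 2.57 TPM in NCI-H2009 and 17.2 TPM in LC-2/ad, and 4.46 TPM in NCI-H2228 and 0.512 TPM in HCC4006. At day 1 it stood at 0.236, 2.16, 0.635 and 0.239 TPM in the same order, and at day 7 at 0.418, 2.76, 0.430 and 0.637 TPM. The TPM of TAGLN was lower at day 1 in each line, but on scaled counts HCC4006 stood at 0.05. The edgeR adjusted p was 0.175 at day 1 and 0.189 at day 7, and DESeq2 called TAGLN at day 7 with an adjusted p of 0.024. The log2 differences of counts and TPM are not the same, and the transcript length implied by their ratio ran from 1824 to 6614 bases between libraries. PCSK7 overlaps TAGLN over 3128 bases on the other strand and reached 59.3 TPM. With limma on log2(TPM + 0.1) the log2 fold change at day 1 was -2.35, and the share of PCSK7 reads in it was not tested. TAGLN lies at chr11:117199370-117207464.

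MYL9 codes for a myosin regulatory light chain, the subunit whose phosphorylation by kinases such as MYLK switches on contraction. It made up at most 0.654% of the TPM of regulatory light chains, beside MYL12A and MYL12B. MYL9 in NCI-H2009 stood at 18.1 TPM in attached cells, 13.7 at day 1 and 14.2 at day 7. In LC-2/ad it stood at 1.08, 0.216 and 0.397 TPM over the same states, in NCI-H2228 at 3.33, 2.31 and 1.15 TPM, and in HCC4006 at 0.983, 1.08 and 1.96 TPM. The lines differed in sign at day 7, with log2 differences between -1.68 in NCI-H2228 and 0.99 in HCC4006. The log2 fold change was -0.66 ± 0.48 at day 1 (edgeR adjusted p = 0.485) and -0.65 ± 0.50 at day 7 (adjusted p = 0.564).

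Over the 9 tested members the log2 fold change was below 0 for 8 at day 1 and 9 at day 7, while none passed the test. The 8 include ACTA2, which lay near 0 at -0.01 ± 0.53. The median over all genes tested was 0.008 at day 1 and 0.033 at day 7, so more genes stood above 0 than below it. By edgeR's quasi-likelihood test with Benjamini-Hochberg adjustment over all genes, 0 of 9 members were called at day 1, where 0.149% of all genes were called higher and 0.339% lower. At day 7 again 0 of 9 were called, beside 0.00575% called higher and 0.0977% lower. At an unadjusted p of at most 0.05, 4 members were lower at day 1 (TAGLN, TPM1, CALD1 and FLNA), against 9.01% of all genes, and 4 at day 7 (TAGLN, TPM2, CALD1 and FLNA), against 7.19%. DESeq2 called 2 members lower at day 1, CALD1 and FLNA, where it called 4.37% of all genes lower. At day 7 it called 3 lower, TAGLN, TPM2 and CALD1, against 3.23% of all genes. Limma on log2(TPM + 1) called no member, against 1.52% of its genes lower at day 1 and 0.344% at day 7.

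By sign alone, 5 of 9 tested members were lower in all 4 lines at day 1 on scaled counts, namely TPM1, TPM2, MYL9, CALD1 and FLNA, against 16.4% of all genes. On TPM there were 6 of 9, with TAGLN and TPM4 in place of MYL9, against 21.3% of all genes. At day 7 there were 4 of 9 on either scale, TPM2, TPM4, CALD1 and FLNA, against 13.6% of all genes on scaled counts and 12.1% on TPM. No member was higher in all 4 lines at either time, where 16.8% of all genes were at day 1 and 14.4% at day 7. The median of the members by line was -0.56 in NCI-H2009 and -0.75 in LC-2/ad, and -0.52 in NCI-H2228 and -0.35 in HCC4006 at day 1. At day 7 it was -0.82, -0.61, -0.91 and -0.16 in that order, and the summed TPM of the 10 genes was lower in each detached library than in its control.

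Between day 7 and day 1 the members showed no common direction. Neither they nor any other gene passed in edgeR, with 0.0% of genes called higher and 0.0% called lower. The unadjusted p was at most 0.05 for 0 of 9 members, against 4.93% of all genes lower and 4.85% higher, and DESeq2 called no member, against 0.575% of all genes lower and 0.535% higher. On scaled counts no member was lower in all 4 lines, against 8.51% of all genes, or higher in all 4, against 9.43%. TPM4 was higher at day 7 in each line by TPM. The median log2 fold change was -0.04. By line, the medians on scaled counts were 0.42 in LC-2/ad, 0.14 in HCC4006, -0.54 in NCI-H2009 and -0.56 in NCI-H2228. In NCI-H2009 the direction depended on the scale for TAGLN, CNN2, TPM1, TPM4 and MYL9, lower on scaled counts but higher on TPM. ACTA2, TPM2 and FLNA were lower and CALD1 higher there on both scales. Both detached states were set against the same attached libraries, so their values above are not independent of each other.

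Several members had a level that marked a line in every state. Over the 3 states of a line, TPM2 averaged 44.0 TPM in NCI-H2009, 15.3-fold above the next line, and MYL9 15.3 TPM, 6.78-fold above the next. Among the other lines, the ranges over the states overlapped between neighbours in rank for both genes. For MYL9, NCI-H2228 at 1.15 to 3.33 TPM still lay above LC-2/ad at 0.216 to 1.08 TPM. TPM1 was highest in HCC4006, 3.34-fold above NCI-H2228, and CNN2 lowest there, at 164 TPM against 280 TPM in NCI-H2228. TPM4 followed the order NCI-H2009, NCI-H2228, HCC4006 and LC-2/ad, where only the first pair overlapped. CALD1 had its lowest mean over the states in NCI-H2228, but at day 1 it was lower in NCI-H2009, and the ranges of these lines overlapped. The ranges of FLNA, ACTA2 and TAGLN also overlapped between neighbouring lines. The 3 states of a line are not replicates, so these ranges describe the libraries only.

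Across the 12 libraries, on log2(TPM + 1), some genes followed the same pattern. The closest member pair was TPM2 with MYL9 (Pearson r = 0.95), both high in NCI-H2009, and CNN2 and TPM1 ran opposite (r = -0.74). Among 9931 other protein-coding genes, the nearest was NEFH for TPM2 (r = 0.98), PSMG2 for MYL9 (0.97), ITGA5 and DPP9 for TPM4 (both 0.96), PI4K2A for CNN2 (0.96), FMR1 for TPM1 (0.95), WDR77 for CALD1 (0.93) and ANXA8L1 for TAGLN (0.92). FLNA was closest to CAVIN1 (0.84), and ACTA2 to RAB1B (0.84). The 12 points share 4 lines, so these values mostly restate which line is high and carry no test.

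ACTB, the main cytoplasmic actin, stood at -0.61 ± 0.30 at day 1 and -0.42 ± 0.30 at day 7, and ACTG1 at -0.27 ± 0.43 and -0.03 ± 0.42. At day 1 both were higher in NCI-H2009 on scaled counts, by 0.249 for ACTB and 1.276 for ACTG1. For ACTB this sign depended on the scale, since its TPM there was 15436 in attached cells and 14226 at day 1. In the other lines ACTB then lay between -1.076 and -0.755 and ACTG1 between -1.137 and -0.695. At day 7 ACTB was lower in all 4 lines on scaled counts, and ACTG1 was lower in 2 and higher in 2. In LC-2/ad, however, the TPM of ACTB was 9260 in attached cells and 9447 at day 7. The 3 muscle actins ACTA1, ACTC1 and ACTG2 were too low to be tested. Of 9 paralogs, 3 were lower in all 4 lines at day 1, against 16.4% of all genes, and 4 at day 7, against 13.6%. CNN3 and TPM3 were among them both times, and no paralog was higher in all 4 lines. The paralogs' median was -0.36 at day 1 and -0.51 at day 7. TAGLN2, the main transgelin, stood at 0.01 ± 0.22 at day 1 and -0.24 ± 0.22 at day 7. MYL6, which codes for a myosin essential light chain, stood at 0.26 ± 0.27 and -0.38 ± 0.28. No paralog or actin passed in edgeR.

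Myosin heavy chains differed in direction. MYH14, which codes for nonmuscle myosin IIC, stood at 1.18 ± 0.37 at day 1 (edgeR adjusted p = 0.137) and 1.20 ± 0.37 at day 7 (adjusted p = 0.181). Over attached, day 1 and day 7 it had 13.2, 27.0 and 101 TPM in NCI-H2009, 21.2, 36.9 and 73.7 TPM in LC-2/ad, 1.60, 4.06 and 0.707 TPM in NCI-H2228, and 6.66, 8.68 and 13.9 TPM in HCC4006. It was thus higher in all 4 lines at day 1 and in 3 at day 7. MYH9, which codes for nonmuscle myosin IIA, had the highest mean TPM of the 3 in each state and stood at -0.33 ± 0.17 and -0.34 ± 0.17, and MYH10 stood at -0.35 ± 0.25 and -0.54 ± 0.25. The MYH14 difference from the other 2 genes was not tested.

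Other genes of smooth muscle were scarce, with 4 of 9 tested. SMTN, which codes for smoothelin and was the abundant one, stood at 39.1, 20.2 and 22.98 TPM over attached, day 1 and day 7 in NCI-H2009, 38.0, 23.6 and 29.4 TPM in LC-2/ad, 28.1, 6.93 and 5.70 TPM in NCI-H2228, and 66.7, 25.7 and 19.1 TPM in HCC4006. It was lower in all 4 lines in both states, at -1.05 ± 0.31 at day 1 (edgeR adjusted p = 0.118) and -1.27 ± 0.31 at day 7 (adjusted p = 0.134). MYH11, the smooth muscle myosin heavy chain gene, stayed below 1 TPM in every library, and SYNPO2 averaged 0.138 TPM at day 1 and 0.137 TPM at day 7, against 0.0343 TPM in attached cells. The median of the 4 tested genes was -0.55 at day 1 and -0.57 at day 7.

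Of 16 genes of the SRF arm, 10 were lower in all 4 lines at day 1 (16.4% of all genes) and 7 at day 7 (13.6% of all genes). FOS was higher in all 4 lines at day 1 (16.8% of all genes), and FOS, MRTFB and LIMA1 were at day 7 (14.4%). None of the 16 passed in edgeR. The list's median was -0.43 and -0.48. ACTN1, which codes for the crosslinker alpha-actinin, stood at -0.43 ± 0.18 at day 1 and -0.54 ± 0.18 at day 7, and FHL1 at -0.68 ± 0.33 and -1.19 ± 0.34. FOS, an immediate early gene that also carries an SRF site, stood at 0.98 ± 0.23 (edgeR adjusted p = 0.0833) and 1.24 ± 0.23 (adjusted p = 0.085). Over attached, day 1 and day 7 FOS had 2.10, 4.73 and 7.30 TPM in NCI-H2009 and 9.51, 15.7 and 18.8 TPM in HCC4006. SRF stood at -0.29 ± 0.27 and -0.38 ± 0.27. Of its coactivators, MRTFA stood at -0.44 ± 0.21 and -0.42 ± 0.21, and MRTFB at -0.36 ± 0.25 at day 1 and 0.34 ± 0.25 at day 7.

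Among 16 regulators of contraction, 6 were lower in all 4 lines at day 1 and 4 at day 7, beside 16.4% and 13.6% of all genes. Their median was -0.27 and -0.15, and none passed. DIAPH3, a formin that builds actin filaments, stood at -1.87 ± 0.45 at day 1 (edgeR adjusted p = 0.084) and -1.77 ± 0.44 at day 7 (adjusted p = 0.134). CFL1, the filament-severing cofilin gene, stood at -0.35 ± 0.17 and -0.44 ± 0.17. RHOB stood at 0.04 ± 0.34 at day 1 and 0.91 ± 0.34 at day 7, when it was the 1 regulator higher in all 4 lines. Another list held 11 genes for proteins that crosslink actin or tie it to the membrane. Of these 11, 4 were lower in all 4 lines at day 1 and 6 at day 7, again beside 16.4% and 13.6% of all genes. The median of the 11 was -0.23 and -0.47, and none passed. ACTN4 stood at -0.40 ± 0.16 and -0.67 ± 0.16, MSN, which codes for moesin, at -0.76 ± 0.27 and -1.02 ± 0.27, and FSCN1, which codes for fascin, at -0.15 ± 0.34 and -1.18 ± 0.34.

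The libraries held between 31134420 and 41882024 estimated counts. All 8 epithelial markers exceeded 1 TPM in at least 1 library, and they summed to between 3230 and 17100 TPM. Of 7 smooth muscle or pericyte markers 4 stayed below 1 TPM in every library, and MYOCD reached at most 0.004 TPM. The list summed to between 10.4 and 56.3 TPM at day 1 and between 9.23 and 43.8 TPM at day 7, against 5.56 to 37.0 TPM in attached cells. Most of these sums came from NOTCH3 and RGS5. NOTCH3 averaged 11.95 TPM in attached cells, 20.98 at day 1 and 17.36 at day 7, and RGS5 4.75, 1.68 and 3.99 TPM in that order. Fibroblast markers, 4 of 10 below 1 TPM throughout, summed to between 7.13 and 184 TPM at day 1 and between 5.83 and 46.0 TPM at day 7, against 7.48 to 379 TPM in attached cells. The highest sums came from COL1A1 in NCI-H2228, where it had 347 TPM in attached cells, 150 at day 1 and 39.2 at day 7. Endothelial markers summed to at most 6.16 TPM. Leukocyte markers summed to between 33.0 and 86.8 TPM at day 1 and between 18.3 and 119 TPM at day 7, against 2.91 to 38.3 TPM in attached cells. PTPRC was at no more than 0.834 TPM, and most of these sums came from CD14 and CD68. CD14 averaged 6.63 TPM in attached cells, 19.7 at day 1 and 27.9 at day 7, and CD68 14.8, 38.4 and 20.3 TPM in that order. Mitochondrially encoded genes took 1.28% to 3.39% of TPM at day 1 and 0.968% to 2.68% at day 7, against 0.526% to 1.56% in attached cells, and the share was higher at day 1 than in attached cells in each line. The part of these values in the members' levels was not tested.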

How the data were processed

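Per the labels' protocols, the RNA was column-purified total RNA and the library kit was SMART-Seq v4 PLUS. The genome build was GRCh38, per the submitters' processing notes; for the aligner, counting tool, annotation release and strand setting the sources used here give nothing. The TPM that the authors deposited add up to 1000000 per library, and the estimated counts in the deposited table are raw. Counts per library lay between 31134420 and 41882024; without molecular identifiers they describe counting error only.

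The estimated counts were rounded and tested with edgeR 4.0.16 (R 4.3.3): TMM scaling, filterByExpr by state, and 1 robust quasi-likelihood fit of state and cell line to all 12 libraries, with Benjamini-Hochberg adjustment over 17395 genes and a threshold of 0.05. CNN1 failed the filter. SE is derived from the fold change and its F statistic. Differences within a line, called scaled counts, are log2 CPM with a prior count of 2. The block is the cell line: deviations from the state mean correlated between states at 0.72 to 0.82 within a line and at -0.38 to -0.09 between lines. Alternatives were DESeq2 1.42.0, limma 3.58.1 on log2 TPM, other scaling, filters and samples. The test was tested on simulated data for day 7 against attached cells. It called 24% of 50 genes changed 2-fold and 82% of 50 changed 4-fold, and 5.03% of its calls were false. Most 2-fold changes were therefore missed there.

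The members and lists were chosen with earlier results of these data known. From each list other than the members and the cell type markers, the text names the 3 genes with the smallest unadjusted p at day 7, and for each member its nearest genes by Pearson r among genes of at least 5 TPM on average. One gene that the rule takes is not reported here. TAGLN2, MYL6, SRF, MRTFA, MRTFB, LIMA1 and the marker genes are named beyond that rule and were chosen after their values were seen. The motifs were searched in RefSeq promoter windows.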

Additional observations from a re-analysis of the deposited data

Results flagged for a closer look

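In groups of 4 libraries, a value was marked where the gap to its nearest neighbour, relative to the group's range, exceeded Dixon's critical value, and 54 groups were checked; chance alone marks about 1 in 20. NCI-H2009 stood apart for TPM2, with 78.3 TPM in attached cells, 28.0 at day 1 and 25.7 at day 7, and for MYL9, with 18.1, 13.7 and 14.2 TPM over the same states. ACTA2 in NCI-H2009 was low in attached cells at 1.47 TPM, and its log2 difference at day 1 was 1.73. TPM1 stood apart in HCC4006 at day 7, with 347 TPM, and TAGLN in LC-2/ad at day 7, with 2.76 TPM. FLNA was high in attached NCI-H2228, with 239 TPM.

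Some members moved to opposite sides in 2 lines by at least 0.5 on the log2 scale; with 1 library per line and state, these differences between lines were not tested. For day 7 against attached, TAGLN stood at 0.52 in HCC4006 and -2.85 in NCI-H2009, and MYL9 at 0.99 in HCC4006 and -1.68 in NCI-H2228. At day 1 ACTA2 stood at 1.73 in NCI-H2009 and -0.60 in HCC4006. For day 7 against day 1, CNN2 stood at 0.52 in LC-2/ad and -0.61 in NCI-H2228, TPM1 at 0.84 in LC-2/ad and -0.51 in NCI-H2228, MYL9 at 1.01 in HCC4006 and -1.16 in NCI-H2228, and FLNA at 0.92 in LC-2/ad and -1.91 in NCI-H2009.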

How the results depend on the processing

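The number of genes called moved strongly with the settings. At day 1 edgeR called 85 genes, against 2 with DESeq2 size factors, 265 with no filter, 0 with no replicate block, 0 with only the 2 states compared, 1709 with DESeq2, 290 with limma on log2(TPM + 1), 215 on log2(TPM + 0.1) and 0 with limma unfiltered. Leaving out any 1 line gave 0 to 0. At day 7 edgeR called 18 genes, against 6, 114, 0, 1, 1162 and 58 under the first 6 of these settings in that order, 14 on log2(TPM + 0.1) and 0 with limma unfiltered, and 0 to 1 without 1 line. Between day 7 and day 1 edgeR called 0, with no filter 6 and DESeq2 193. DESeq2 called 2 members at day 1 and 3 at day 7, edgeR 0. The cause was not tested.

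The members' log2 fold changes against attached cells kept their direction in all settings, apart from ACTA2 and CNN2 at day 1, which lie near 0. ACTA2 there was 0.027 with 2 states and -0.50 to 0.22 without 1 line (0.06 without LC-2/ad and 0.213 without NCI-H2228). CNN2 was -0.009 with 2 states, -0.15 with limma in each of 3 forms, and -0.17 to 0.13 without 1 line (-0.085 without NCI-H2228). The members' median at day 7 was -1.06 to -0.56 without 1 line, the upper end without NCI-H2228. For day 7 against day 1, signs turned with no replicate block for TPM4 (-0.054), MYL9 (-0.44) and FLNA (0.14), and with 2 states for MYL9 (-0.031). With limma they turned for TAGLN (0.16, and 0.40 with a pseudocount of 0.1), CNN2 (0.077 in each), CALD1 (0.24, and 0.245 with 0.1) and FLNA (0.10 in each). Without 1 line the ranges crossed 0 for FLNA (-0.34 to 0.51), TPM1 (-0.15 to 0.29), TPM4 (-0.033 to 0.27), MYL9 (-0.45 to 0.37, and -0.121 without LC-2/ad), CALD1 (-0.18 to 0.052, and 0.01 without LC-2/ad) and CNN2 (-0.37 to 0.008). The cause was not tested. Of 324 values for single members under alternatives, 285 kept direction and side of the threshold, 34 changed sign and 5 passed the threshold only under DESeq2. TAGLN, ACTA2, MYL9 and CNN1 were low, which limits their precision.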
